A study of Mus musculus with 9 samples.

Results

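The genes described here are 29 members of the cholesterol synthesis and SREBP2 pathway, found by mouse symbol among the 47731 genes of the RNA count files. They were taken as a list of pathway enzymes and regulators, and the rule uses no measured value. Earlier results of these data were known when the list was chosen. The list runs from the supply of acetyl-CoA and acetoacetyl-CoA (3 genes) through the mevalonate and isoprenoid steps (7), the squalene and lanosterol steps (3) and the steps from lanosterol to cholesterol (8). It ends with SREBP2 and the proteins that control it (6) and with sterol transport and storage (2). All 29 were in the files, and all 29 passed the filter on low counts.

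The cells were mouse macrophages treated with M-CSF, a cytokine that macrophages need to form and survive, and recorded at passage 0. Genotypes were Tet2 Knockout and Wild-Type. TET2 oxidises 5-methylcytosine in DNA to 5-hydroxymethylcytosine (5hmC). RNA was measured in 2 knockout and 3 wild-type libraries and 5hmC in 2 of each, so every comparison is of Tet2 knockout with wild type at 1 condition. The labels give neither the age or sex of the mice nor the allele, and do not say whether libraries came from separate animals, so a p-value here covers the spread among these libraries and no more, whatever its source.

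Cells make cholesterol from acetyl-CoA through mevalonate, squalene and lanosterol. The transcription factor SREBP2, encoded by Srebf2, waits in the endoplasmic reticulum as a precursor bound to SCAP, and INSIG proteins hold that complex there while sterols are plentiful. When sterols fall, the complex moves to the Golgi, the site-1 and site-2 proteases (Mbtps1, Mbtps2) release the active fragment, and it raises transcription of the synthesis enzymes and of Insig1. Macrophages take up much cholesterol from engulfed material, esterify it with SOAT1 for storage and export it.

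SREBP2 binds sterol regulatory elements (SREs), usually with the factors NF-Y and Sp1 bound nearby. RefSeq promoter windows of build GRCm38.p6, from 250 bases before to 50 after each start, matched 25 of the 29 genes with 31 windows. Windows for Sqle, Fdft1, Fdps and Stard4 were not among them. The 250 upstream bases of 4 members are printed 5′ to 3′ on the gene's strand, with capitals marking matches, on either strand, to the SRE core TCACNCCAC and to the NF-Y box CCAAT. Hmgcs1 is shown because it held the list's SRE core match, and Msmo1 because it had 3 NF-Y boxes and a lower RNA level in knockout, described below. Other members also had 3 or more boxes, among them Mvk (5) and Ggps1 (3), and box number was not compared with RNA level. Insig1 is the regulator that SREBP2 itself induces, and Soat1 is the storage enzyme that varied differently from the synthesis genes. They lie at chr13:119690101-119690350 (+), chr8:64733579-64733828 (-), chr5:28071162-28071411 (+) and chr1:156474329-156474578 (-), in that order.
Hmgcs1: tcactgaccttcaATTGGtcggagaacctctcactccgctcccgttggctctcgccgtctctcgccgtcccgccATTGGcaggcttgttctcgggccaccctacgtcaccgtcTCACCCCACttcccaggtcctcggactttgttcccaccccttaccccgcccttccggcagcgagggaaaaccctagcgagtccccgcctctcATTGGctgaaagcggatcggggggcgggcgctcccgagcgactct
Msmo1: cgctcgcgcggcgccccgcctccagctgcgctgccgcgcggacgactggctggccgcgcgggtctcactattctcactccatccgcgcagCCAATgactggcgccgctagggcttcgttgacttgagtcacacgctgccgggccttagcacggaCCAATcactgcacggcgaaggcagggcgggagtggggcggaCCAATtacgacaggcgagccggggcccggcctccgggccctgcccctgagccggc
Insig1: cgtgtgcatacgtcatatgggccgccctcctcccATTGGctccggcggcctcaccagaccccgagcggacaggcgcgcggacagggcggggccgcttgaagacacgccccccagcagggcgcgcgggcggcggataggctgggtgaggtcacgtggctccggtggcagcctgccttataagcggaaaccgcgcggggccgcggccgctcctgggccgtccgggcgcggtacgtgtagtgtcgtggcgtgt
Soat1: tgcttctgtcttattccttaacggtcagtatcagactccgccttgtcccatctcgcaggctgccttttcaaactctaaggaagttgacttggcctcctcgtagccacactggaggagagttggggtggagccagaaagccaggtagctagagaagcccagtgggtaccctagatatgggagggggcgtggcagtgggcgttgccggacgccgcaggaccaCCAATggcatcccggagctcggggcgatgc

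Among the 31 member windows, the SRE core on either strand was in 1, or 3.23%, against 1.24% of all 32851 windows. The NF-Y box was in 20 (64.5%, against 37.4% of all windows). The Sp1 box GGGCGG was in 24 (77.4%, against 35.7%). Each motif was counted on its own, overlaps with another motif allowed, and a gene can have several windows. Hmgcs1, which also had 4 NF-Y boxes in its whole window, was the member with both an SRE core and an NF-Y box, a pairing found in 0.441% of all windows. A match is an exact run of letters inside the window, so a site that differs by a letter or lies outside was not counted. No binding was measured.

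RNA libraries held 16053426 to 56394358 counts in genes. Tet2 itself was at 232 and 126 CPM (counts per 1000000) in the libraries labelled knockout and at 86.2, 144 and 41.6 in wild type (edgeR adjusted p = 0.520). The labels do not say which part of Tet2 is altered, so its summed count does not check them. An entry named ENSMUSGKI000000001, which the labels do not describe, was counted 1452 and 2245 times in knockout and 0 times in each wild-type library. Macrophage markers were abundant as a sum in every library. The 9 markers summed to 17922 and 20225 normalised CPM in the knockout libraries and to 12645 to 22073 in wild type. Lyz2 was the largest part of each sum, at 7855 to 15718, so the sums say little about the other markers. Single markers went both ways, with 5 higher and 4 lower in fitted level in knockout. EdgeR called 0 of them and DESeq2 4, where DESeq2 called 8.22% of all genes. Wild-type replicate 3 stood apart. Its 14 stromal and osteoblast markers summed to 5784 normalised CPM against at most 13.9 in any other library, and 11 of the 14 exceeded every other library at least 10 times over. Col1a1, the main collagen of bone and connective tissue, was at 1144 normalised CPM there. Fold changes of the genes described in full are therefore given with and without that library, and the plot of fitted fold changes shows both for all 29. In bulk RNA, fewer cells of a type and less RNA per cell cannot be told apart.

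The synthesis genes were mostly lower in the 2 knockout libraries than in the 3 wild-type libraries, but no member passed the test across all genes. Of 29 members, 27 had a lower fitted level in knockout, where 51.6% of all tested genes did, with a median log2 fold change of -1.02 against -0.03 over all genes. None was called by edgeR at an adjusted p under 0.05, a threshold passed by 0.0135% of genes (2 of 14851), and adjusted p ran from 0.244 to 0.995. At an unadjusted p under 0.05, 4 members were lower (Hmgcs1, Msmo1, Dhcr7 and Soat1) and 0 higher, where 7.86% of all genes were lower. DESeq2 called 1 member, Dhcr7 (adjusted p = 0.0237), against 8.22% of genes in either direction, and limma-voom called 0. In 15 of 29 members both knockout libraries lay below every wild-type library, as in 19.0% of all genes.

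Wild-type replicate 3 carried much of the size of these differences. Without it, 22 of 29 members were lower (50.4% of genes) and their median log2 fold change was -0.37, against -0.01 over all genes. Again 0 were called, as for 0.0% of all genes (0 of 14218), with the smallest adjusted p of a member at 0.208. At an unadjusted p under 0.05, 6 were lower, namely Hmgcs1, Cyp51, Msmo1, Dhcr7, Insig1 and Soat1, and 0 higher, where 9.96% of genes were lower. The knockout libraries lay below both remaining wild-type libraries in 16 members, the 15 already counted and Mbtps2, against 28.2% of genes. Leaving out other libraries moved the count of 4 at an unadjusted p under 0.05 to 9 (without wild-type replicate 1), to 8 (wild-type replicate 2), to 0 (knockout replicate 1) and to 2 (knockout replicate 2).

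**Figure D1:**
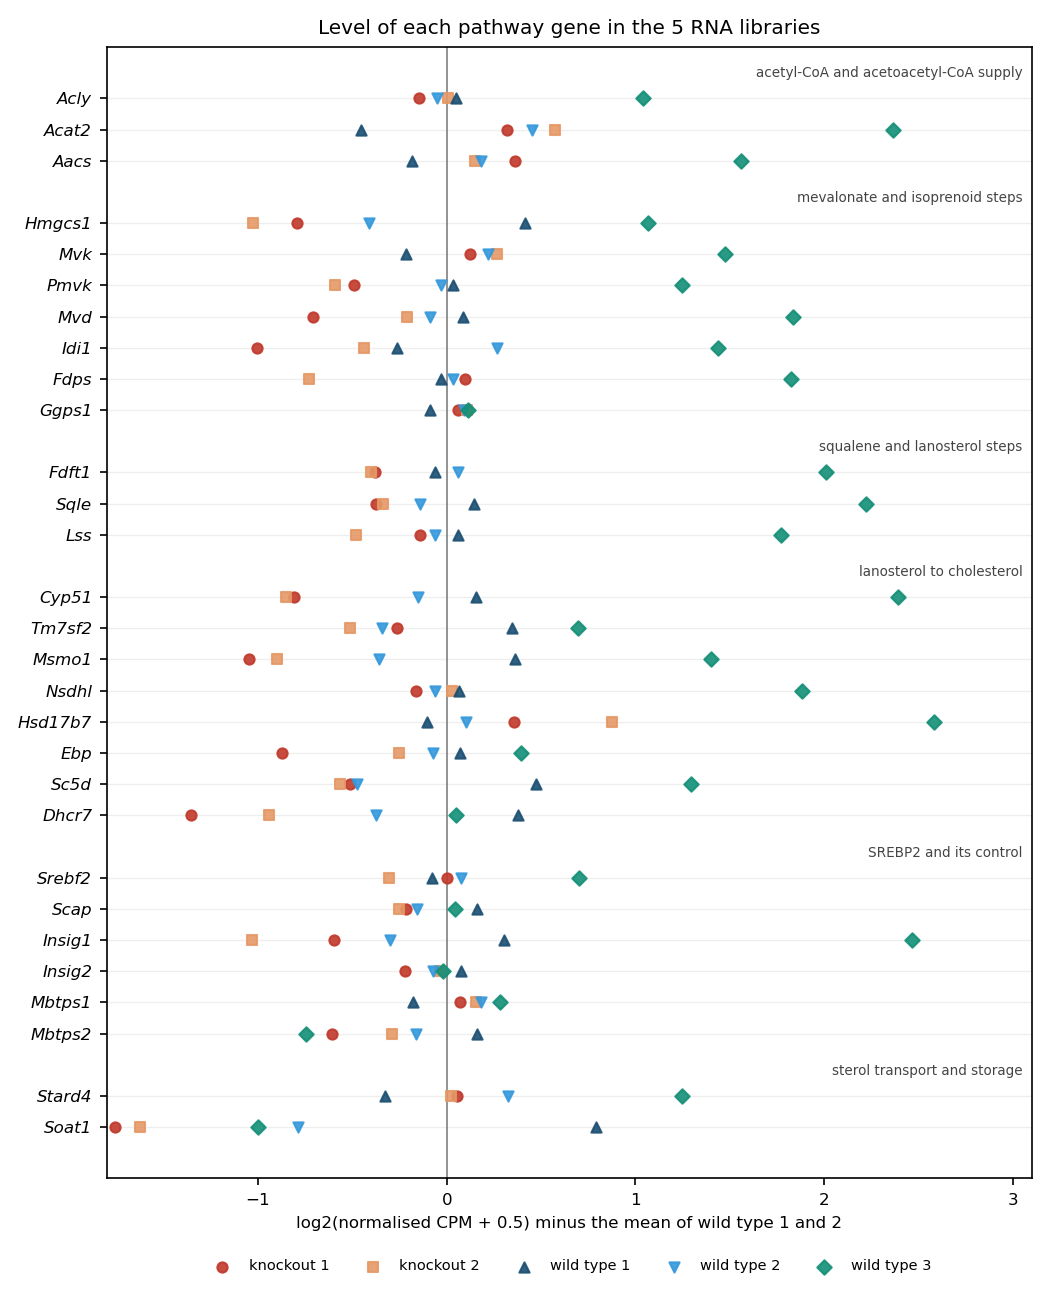
Level of each of the 29 pathway genes in the 5 RNA libraries, as log2(normalised CPM + 0.5) minus the mean of wild-type replicates 1 and 2 (x axis), by pathway step (y axis); each point is 1 library. Wild-type replicate 3 (green diamonds) is the highest library for 24 of 29 genes, and both knockout libraries lie below all wild-type libraries for 15.

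**Figure D2:**
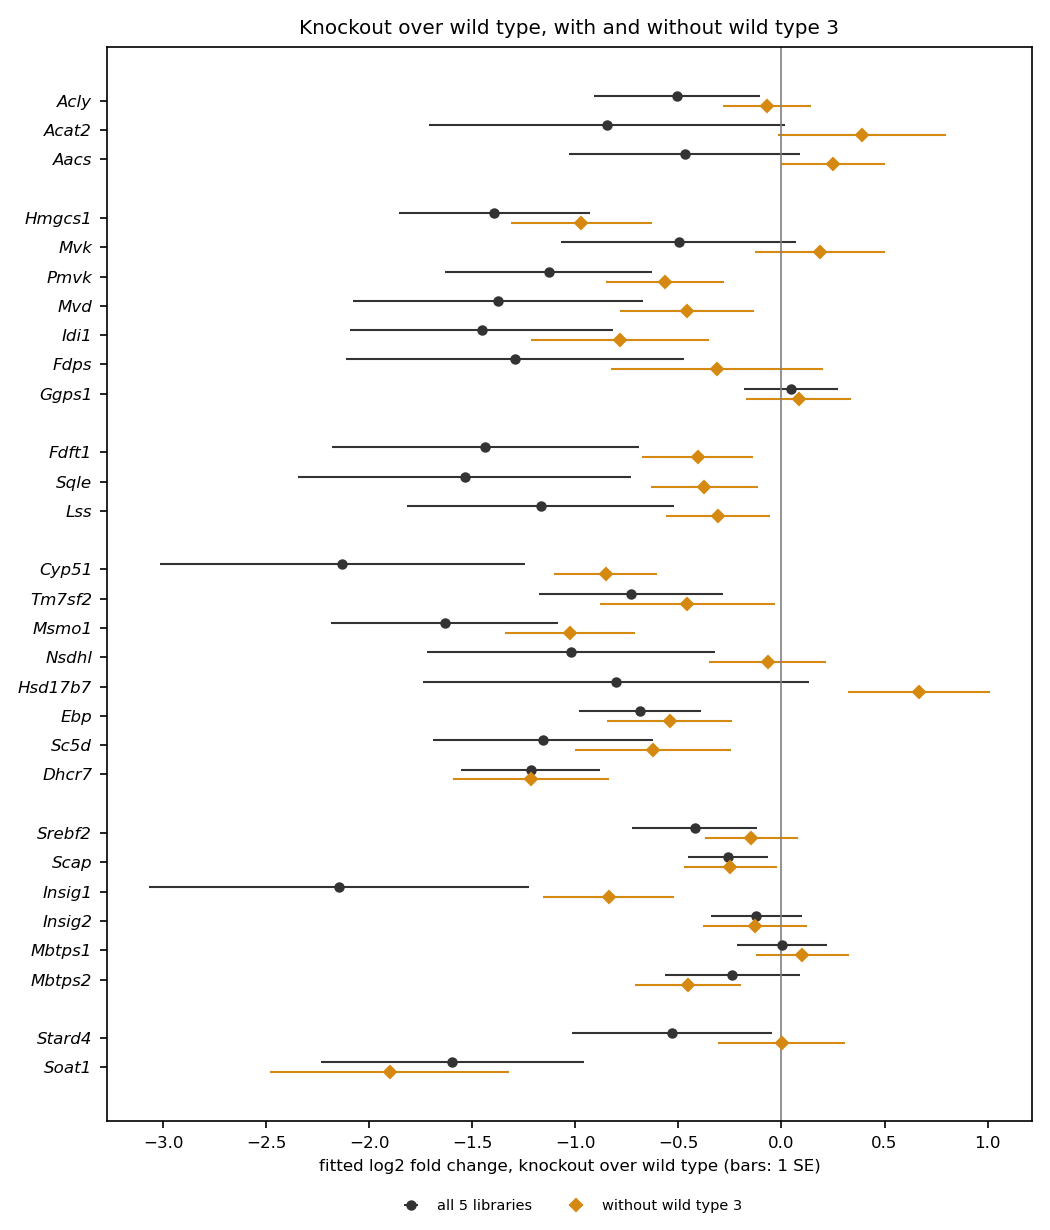
Fitted log2 fold change, knockout over wild type (x axis), for each pathway gene (y axis), with all 5 RNA libraries (dark circles) and without wild-type replicate 3 (orange diamonds); bars are 1 standard error. The median moves from -1.02 to -0.37, while Dhcr7 stays at -1.22 and Soat1 moves to -1.90.

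Of the 3 supply genes, 3 had a lower fitted level in knockout, and 1 once wild-type replicate 3 was set aside. Acly, which cleaves citrate into cytosolic acetyl-CoA, was at 203 and 226 normalised CPM in the knockout libraries and at 233, 218 and 464 in wild-type replicates 1, 2 and 3. Only the last stood clear of the others, and the log2 fold change of -0.51 ± 0.40 (SE; edgeR adjusted p = 0.607) became -0.07 without it. Acat2, the thiolase that joins acetyl-CoA into acetoacetyl-CoA, was at 12.9 and 15.5 in knockout and at 7.39, 14.2 and 55.0 in wild type. Its log2 fold change went from -0.85 ± 0.87 (edgeR adjusted p = 0.692) to 0.39, so the direction rested on 1 library. Acat2 overlaps a pseudogene by 634 bases and has close paralogs, so its counts are uncertain. The third gene, Aacs, which activates acetoacetate, ran from 29.8 to 101 normalised CPM and went from -0.47 to 0.25. The step's median log2 fold change was -0.51 with all libraries and 0.25 without replicate 3.

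In the mevalonate and isoprenoid steps, 6 of 7 genes had a lower fitted level in knockout, and 5 of 7 without wild-type replicate 3. Hmgcs1, the HMG-CoA synthase that commits acetoacetyl-CoA to the pathway, was at 46.2 and 39.3 normalised CPM in knockout. In wild type it was at 107, 60.3 and 169, so the groups did not overlap, with a wide spread within wild type. Its log2 fold change was -1.39 ± 0.46 (unadjusted p = 0.0262, edgeR adjusted p = 0.295), and -0.97 ± 0.34 without replicate 3 (edgeR adjusted p = 0.254). Idi1, which isomerises isopentenyl diphosphate, was at 3.36 and 5.22 in knockout and at 5.95, 8.80 and 20.5 in wild type. The groups did not overlap, though knockout replicate 2 and wild-type replicate 1 were close. Its log2 fold change was -1.45 ± 0.64 (edgeR adjusted p = 0.394) and -0.78 without replicate 3.

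The other 5 genes of these steps were Mvk and Pmvk (the mevalonate and phosphomevalonate kinases), Mvd (the decarboxylase), Fdps (farnesyl diphosphate synthase) and Ggps1 (geranylgeranyl diphosphate synthase). Their log2 fold changes ran from -1.37 (Mvd) to 0.05 (Ggps1), and from -0.57 (Pmvk) to 0.19 (Mvk) without replicate 3. Pmvk and Mvd also had both knockout libraries below all wild-type libraries. Ggps1, whose product serves protein prenylation, was the flattest gene of the step, at 16.1 to 18.6 normalised CPM across all 5 libraries. Fdps was thinly covered, with 46 to 758 counts per library. Mvd overlaps a long non-coding RNA gene by 3213 bases, and how the counting treated strand is not known here, so reads from the pair cannot be told apart.

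The 3 genes of the squalene and lanosterol steps had the same order of libraries by genotype: lowest in knockout, slightly higher in wild-type replicates 1 and 2, and far higher in replicate 3. Fdft1, squalene synthase, was at 11.1 and 10.9 normalised CPM in the knockout libraries and at 13.9, 15.2 and 59.9 in wild type. Sqle, squalene epoxidase and a rate-limiting enzyme of the late pathway, was at 17.3 and 17.8 in knockout and at 25.1, 20.5 and 107 in wild type. Lss, which closes the epoxide into lanosterol, was at 23.9 and 30.4 in knockout and reached 116 in replicate 3. In all 3 genes the genotypes did not overlap, with or without replicate 3, but the gap to wild-type replicates 1 and 2 was small. The log2 fold change of Sqle was -1.54 ± 0.81 (edgeR adjusted p = 0.460) and -0.37 without replicate 3, and that of Fdft1 was -1.44 ± 0.74 (edgeR adjusted p = 0.453) and -0.41. Fdft1 shares 774 bases with Ctsb and Lss shares 11269 with a long non-coding RNA gene, which leaves part of their counts uncertain.

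From lanosterol to cholesterol, all 8 genes had a lower fitted level in knockout (median log2 fold change -1.09), and 7 of 8 without wild-type replicate 3 (median -0.58). Dhcr7, the 7-dehydrocholesterol reductase that makes cholesterol in the last step, was at 9.28 and 12.6 normalised CPM in knockout. It was at 32.0, 18.8 and 25.5 in wild type, with no overlap and with replicate 3 between the other wild-type libraries. Its log2 fold change was the same with and without replicate 3, -1.22 ± 0.34 (unadjusted p = 0.0127, edgeR adjusted p = 0.244) and -1.22 ± 0.38 (edgeR adjusted p = 0.221). Msmo1, the sterol C4-methyl oxidase, was at 29.6 and 32.9 in knockout and at 79.3, 48.0 and 164 in wild type. Here too no knockout library reached a wild-type one. The log2 fold change was -1.63 ± 0.55 (unadjusted p = 0.0278, edgeR adjusted p = 0.299), and -1.03 ± 0.32 without replicate 3 (edgeR adjusted p = 0.219).

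Cyp51, the lanosterol demethylase, is named after its values were seen, because it had the smallest member p without replicate 3. Its knockout levels were 20.0 and 19.4 normalised CPM, and its wild-type levels were 39.3, 31.7 and 187. Without replicate 3 the log2 fold change of -2.13 ± 0.88 became -0.85 ± 0.25 (unadjusted p = 0.0191, edgeR adjusted p = 0.208). Ebp, the sterol isomerase, and Sc5d, the desaturase just before Dhcr7, also had knockout below wild type in every library, with log2 fold changes of -0.69 and -1.16, and of -0.54 and -0.62 without replicate 3. Tm7sf2 (a sterol C14 reductase), Nsdhl (the C4 decarboxylating dehydrogenase) and Hsd17b7 (its 3-keto reductase partner) overlapped between genotypes. Hsd17b7 had the largest ratio of replicate 3 to the mean of wild-type replicates 1 and 2, 6.30-fold, and its log2 fold change of -0.80 turned to 0.67 without that library.

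**Figure D3:**
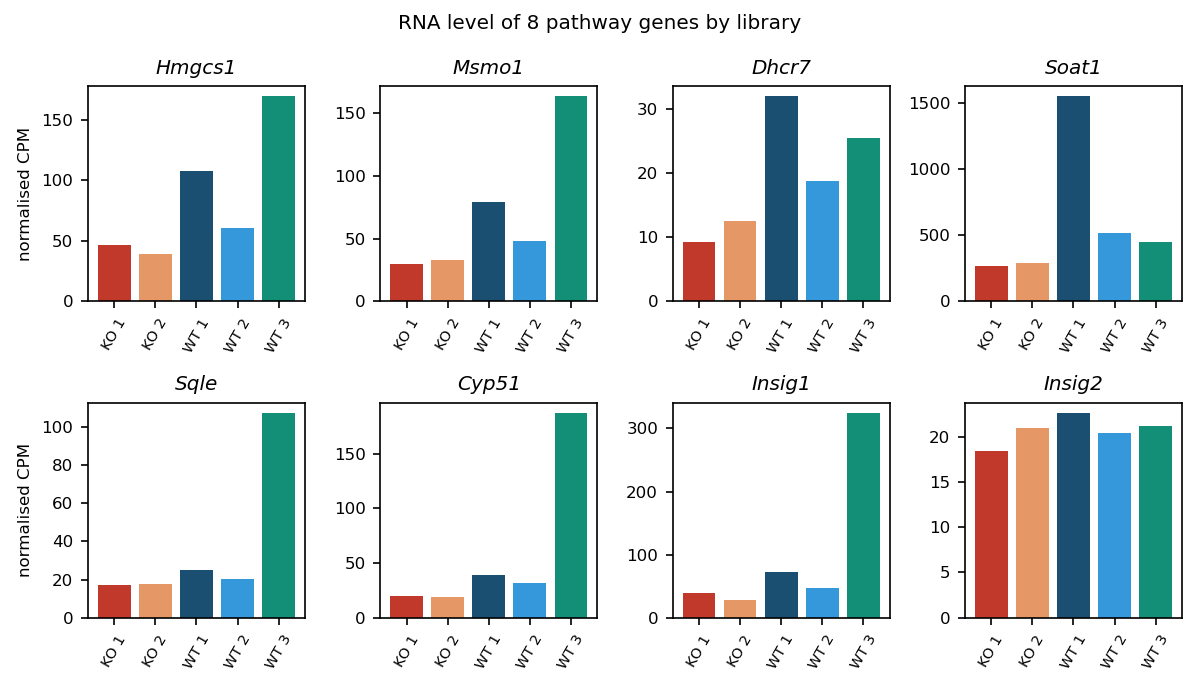
Normalised CPM (y axis, from 0) of 8 pathway genes in each RNA library (x axis; KO, knockout; WT, wild type), 1 bar per library. Sqle, Cyp51 and Insig1 tower in WT 3, Soat1 in WT 1, Dhcr7 is higher in all 3 wild-type libraries, and Insig2 stays between 18.4 and 22.6.

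Among the regulators, 5 of 6 had a lower fitted level in knockout with and without wild-type replicate 3, and Insig1 had the largest difference. Srebf2, which encodes SREBP2, was at 80.7 and 65.2 normalised CPM in the knockout libraries and at 76.4, 85.1 and 131 in wild type, so the groups overlapped. Its log2 fold change was -0.42 ± 0.30 (edgeR adjusted p = 0.579) and -0.15 without replicate 3. Scap, the escort that carries SREBP2 to the Golgi, was at 64.1 and 62.4 in knockout and at 83.4, 66.7 and 76.8 in wild type. Those groups did not overlap, but the gap between the nearest libraries was narrow (log2 fold change -0.26 ± 0.19, edgeR adjusted p = 0.591, and -0.25 without replicate 3).

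Insig1, the sterol-responsive retention factor, was at 38.6 and 28.4 normalised CPM in the knockout libraries and at 72.4, 47.4 and 325 in wild type. The groups did not overlap, and replicate 3 was 5.43 times the mean of the other wild-type libraries. Its log2 fold change was -2.15 ± 0.92 (edgeR adjusted p = 0.387) with all libraries and -0.84 ± 0.32 without replicate 3 (unadjusted p = 0.0466, edgeR adjusted p = 0.277). The annotation places Insig1 wholly inside a long non-coding RNA gene, so its counts carry that uncertainty. Insig2, which is not a classical SREBP2 target, was at 18.4 and 21.0 in knockout and at 22.6, 20.4 and 21.2 in wild type. The genotypes overlapped and differed by -0.12 ± 0.22 on the log2 scale (edgeR adjusted p = 0.843), and by -0.13 without replicate 3. The site-1 protease gene Mbtps1 ran from 81.7 to 113 normalised CPM, with overlap between genotypes. Mbtps2, for the site-2 protease, was lowest in wild-type replicate 3, at 26.4, against the pattern of the enzymes, and its gene holds that of Yy2.

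The transport and storage genes differed from each other. Stard4, a cytosolic sterol carrier that is itself an SREBP2 target, was at 27.0 and 26.4 normalised CPM in the knockout libraries and at 20.7, 32.7 and 62.2 in wild type. The wild-type libraries lay on both sides of knockout, and the log2 fold change was -0.53 ± 0.48 (edgeR adjusted p = 0.655) and 0.0007 without replicate 3. Soat1, which esterifies cholesterol for storage in droplets, was at 265 and 290 in knockout and at 1552, 519 and 449 in wild type. Every wild-type library was above both knockout libraries, and here replicate 1, not replicate 3, was far above the rest. The log2 fold change was -1.60 ± 0.64 (unadjusted p = 0.0497, edgeR adjusted p = 0.361), -1.90 ± 0.58 without replicate 3 (edgeR adjusted p = 0.215) and -0.83 without replicate 1 (edgeR adjusted p = 0.337). Osteoclast markers, of which 6 were listed, also summed highest in wild-type replicate 1, at 973 normalised CPM. They summed to 255 and 273 in wild-type replicates 2 and 3 and to 32.4 and 181 in knockout. In replicate 1 the sum was nearly all Atp6v0d2, at 931, whereas Acp5 and Ctsk were highest in knockout replicate 2 (82.8 and 48.4, against 22.6 and 3.28 in wild-type replicate 1). Calcr was at 0 in every wild-type library. Their part in the Soat1 values was not tested.

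Wild-type replicate 3 was the highest library for 24 of 29 members, against 20.2% of all genes. The exceptions were Dhcr7, Scap, Insig2, Mbtps2 and Soat1, each highest in wild-type replicate 1. In 15 members replicate 3 was at least 2 times the highest other library, which held for 4.27% of genes. Relative to the mean of wild-type replicates 1 and 2, its median ratio was 4.12 for the squalene and lanosterol steps, 2.95 for supply, 2.78 for the mevalonate steps, 2.46 from lanosterol onward and 1.12 for the regulators. These are ratios of 1 library and carry no replicate error. The collagen-rich marker list was elevated in the same library, as given above, and its part in the sterol gene levels was not tested.

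In the fatty acid arm, driven mainly by SREBP1, 10 of 12 listed genes had a lower fitted level in knockout (51.6% of all genes) and 2 a higher one, with a median log2 fold change of -0.93. Without replicate 3, 8 of 12 were lower (50.4% of all genes) and the median was -0.54. EdgeR called 0 and DESeq2 3 (8.22% of all genes). At an unadjusted p under 0.05, 4 were lower (7.86% of all genes) and 0 higher. Fads1, a fatty acid desaturase, was at 31.8 and 72.9 normalised CPM in the knockout libraries and at 134, 119 and 215 in wild type, without overlap (log2 fold change -1.57, edgeR adjusted p = 0.268, and -1.27 without replicate 3). Elovl5, an elongase, was at 52.0 and 69.6 in knockout and at 103, 85.3 and 131 in wild type (log2 fold change -0.80, edgeR adjusted p = 0.303, and -0.63 without replicate 3). Summed over the 12 genes, replicate 3 stood at 2467 normalised CPM against 510 to 655 in the other libraries.

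Genes for the sterol-regulated degradation and retention of pathway proteins were balanced, with 6 of 10 higher in knockout and 4 lower (median log2 fold change 0.03). Of all genes, 51.6% had a lower fitted level. EdgeR and DESeq2 each called 0, where DESeq2 called 8.22% of all genes. At an edgeR unadjusted p under 0.05, 1 was higher and 0 lower, where 883 of 14851 genes were higher and 1167 lower. Intracellular sterol transport genes split 4 higher and 7 lower (median -0.24), where 51.6% of all genes were lower. EdgeR called 0 and DESeq2 1, against 8.22% of all genes by DESeq2. The gene called was also the 1 gene higher, against 0 lower, at an unadjusted p under 0.05. That gene was Gramd1a, which moves cholesterol from the plasma membrane to the endoplasmic reticulum. It was at 480 and 301 normalised CPM in the knockout libraries and at 107, 118 and 101 in wild type. The groups did not overlap, and the log2 fold change was 1.85 ± 0.27 (edgeR adjusted p = 0.162, DESeq2 adjusted p = 6.42e-07), and 1.79 without replicate 3.

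5hmC was examined inside the gene bodies of the 29 members on GRCm38. A peak was found in 7 of them, 1 each, and at least 1 peak was found in 24.5% of 13303 tested genes with a position. Counts in listed peaks came to 46230 and 42489 in the knockout libraries and to 42678 and 219116 in the wild-type ones, so single peaks carry few counts. The 2 knockout libraries differed by less than sampling noise and entered as 1 sample with their mean count. Peaks had been called by genotype, and 5 of the 7 were called in wild type (Hmgcs1, Dhcr7, Msmo1, Pmvk and Soat1), 1 in knockout (Fdft1) and 1 in both (Sqle). Exon and intron positions were not assigned, since the annotation used gives starts and ends of genes.

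Soat1 held the peak with the widest gap between genotypes, at chr1:156470306-156470681, about 3834 bases into the gene. It had 1 and 3 counts in knockout against 15 and 40 in wild type, or 2.16 and 7.06 against 35.1 and 18.3 per 100000 peak counts. The exact Poisson 95% intervals, which cover counting error only, were 0.0548 to 12.1 and 1.46 to 20.6 in knockout. They were 19.7 to 58.0 and 13.0 to 24.9 in wild type, so the second knockout library overlapped both wild-type ones. The fitted log2 fold change was -2.20 ± 0.97 (unadjusted p = 0.0237, edgeR adjusted p = 0.0964). That did not pass a threshold which 19.7% of the 859 tested peaks passed, 154 of them higher in knockout and 15 lower. With libraries scaled to their total counts in the 859 tested peaks it was -3.27, and without knockout replicate 2 it was -3.32. It was -1.83 without knockout replicate 1 and -1.71 with a filter of at least 10 counts over all libraries. In each of these fits knockout is 1 sample. The spread comes from the 2 wild-type libraries alone, and the lone sample is assumed to vary like them. With the knockout libraries as 2 samples, the Soat1 peak was below the count filter. This peak had been called in wild type and passed the main filter through its wild-type counts alone. A lower knockout value was thus favoured beforehand, and the p-values of this peak do not support one.

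The Sqle peak, at chr15:59316440-59317435, was the other one with enough counts for the test. It had 12 and 15 counts in knockout against 15 and 47 in wild type, which is 26.0 and 35.3 against 35.1 and 21.4 per 100000. The libraries interleaved. The log2 fold change of 0.46 ± 0.48 turned to -0.65 when libraries were scaled to their total counts in the tested peaks. Those totals are not the totals over all listed peaks that the values per 100000 use. That scaling lowered the median of all tested peaks by 1.04 on the log2 scale and called 0 peaks.

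The other 5 peaks were below the count filter of the main fit and were not tested there. A fit with the filter of at least 10 counts over all libraries included them, with knockout again as 1 sample. Its log2 fold changes were -0.34 (Hmgcs1), 0.02 (Msmo1), 0.35 (Dhcr7), -0.34 (Pmvk) and 1.33 (Fdft1). The Hmgcs1 peak, at chr13:119694881-119695172 and 4675 bases into the gene, had 2 and 1 counts in knockout against 4 and 17 in wild type (4.33 and 2.35 against 9.37 and 7.76 per 100000). Msmo1 held one at chr8:64724829-64725212 with 6 and 6 against 9 and 40 counts (13.0 and 14.1 against 21.1 and 18.3 per 100000). Per 100000, both knockout values lay below both wild-type values in these 2 genes and Soat1, as in 60.4% of all peaks called in wild type. For Msmo1 this depended on the scaling, since the fit, which uses TMM, gave 0.02. Peaks in Dhcr7 (chr7:143832284-143832689) and Pmvk (chr3:89457261-89457591) overlapped between genotypes. The knockout-called peak in Fdft1 (chr14:63176967-63177296) was higher in knockout, 10.8 and 7.06 against 4.69 and 5.02 per 100000. All 7 peaks together covered 3115 bases and summed to 67.1 and 82.4 per 100000 in knockout and to 127 and 88.1 in wild type. The peaks had been called separately by genotype. The difference of -0.52 on the log2 scale was not tested. It was -0.24 when wild-type replicate 1 was left out and -0.76 when replicate 2 was, and the 2 wild-type libraries alone differed with an SD of 0.37.

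**Figure D4:**
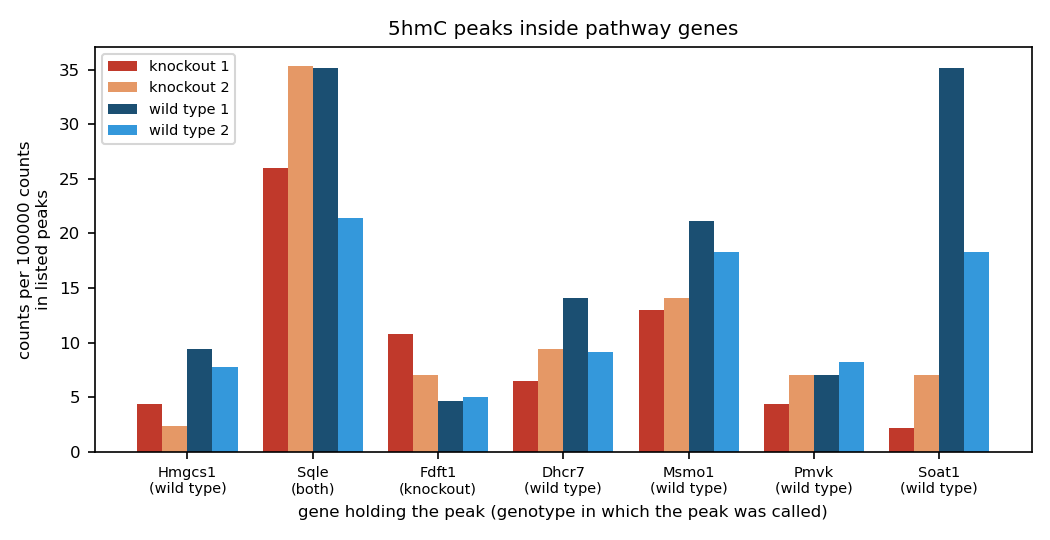
5hmC counts per 100000 counts in listed peaks (y axis, from 0) for the 7 peaks inside pathway genes (x axis, with the genotype in which each peak was called), 1 bar per library. Soat1 shows the widest gap, 2.16 and 7.06 in knockout against 35.1 and 18.3 in wild type, and Sqle interleaves.

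Whether 5hmC and RNA are linked in these genes was not tested, because they come from few libraries and the labels do not pair the assays beyond a shared number.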

How the data were processed

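The authors deposited counts per gene for RNA and counts per peak for 5hmC. Per the labels' descriptions the RNA was ribodepleted and the DNA enriched for biotinylated 5hmC. STAR, BWA, HTSeq, MACS2, Trim Galore, CASAVA 1.4 and the build GRCm38 are named in the submitters' processing notes. Not given in the sources used here are their roles, the annotation release and the strand setting. Per the names in the deposited file, peaks were called by genotype and joined.

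Each assay was fitted by edgeR's quasi-likelihood test (edgeR 4.0.16, R 4.3.3; TMM, filterByExpr, two-sided, Benjamini-Hochberg over all 14851 genes or 859 peaks tested, threshold 0.05), and the steps were tested on simulated data. DESeq2 1.42.0 and limma-voom (limma 3.58.1), other scalings and filters, a replicate block and leaving out each library were alternatives. Normalised CPM divide counts by the TMM-scaled library size, per 1000000. Peaks were assigned by an overlap of at least 1 base with RefSeq GRCm38 gene bodies. Motifs were searched on both strands.

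The members, steps, related lists and markers were chosen with earlier results of these data known. Full values go to the 2 members of smallest unadjusted p in each step and to Srebf2, Scap, Insig1 and Insig2; in each related list, 1 or 2 genes of smallest unadjusted p are named. A gene that this rule names is not reported here. B cell, granulocyte, dendritic, megakaryocyte, T cell and cell cycle markers were summed too and are given with the other observations.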

Additional observations from a re-analysis of the deposited data

How the results depend on the processing

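Of the 29 members, 0 were called by edgeR under each scaling and filter tried, with any 1 library left out and with the replicate block, and by limma-voom; DESeq2 called 1. The number lower at an unadjusted p under 0.05 was 4, against 7 with DESeq2 and 0 to 9 with 1 library left out. Of all genes, 2 were called, against 1211 with DESeq2, 1 with limma-voom, 0 with total-count scaling, 0 with the replicate block and 0 to 0 with 1 library left out. The lower fitted level held for 22 to 29 members under every alternative, and the median log2 fold change ran from -1.35 to -0.37. With the replicate block, in which wild-type replicate 3 has no partner, 22 were lower with a median of -0.39, and Acat2 (0.46), Aacs (0.26), Mvk (0.20), Hsd17b7 (0.65) and Stard4 (0.0381) turned higher. Deviations of same-numbered libraries from their genotype means had correlations of 0.001 and -0.12 over 2 pairs. The deviations of 2 knockout libraries mirror each other by construction, so this check cannot decide whether the numbers pair libraries. Leaving out 1 library moved Acat2 from -1.34 to 0.39, Aacs from -0.83 to 0.25, Mvk from -0.86 to 0.19, Hsd17b7 from -1.27 to 0.67, Stard4 from -0.88 to 0.0007, Ggps1 from -0.0489 to 0.083 and Mbtps1 from -0.16 to 0.10; Mbtps1 was at -0.029 with no filter. The cause was not tested. In 5hmC, 0 member peaks were called, and 0 to 1 with a knockout library left out. The Sqle peak turned from 0.46 to -0.65 with scaling to total counts in the tested peaks. It was at -0.35 with the knockout libraries as 2 samples and at -0.42 with the replicate block added. Without either wild-type 5hmC library no residual degree of freedom is left, so the peak test was not run. The summed 5hmC difference of -0.52 ran from -0.76 to -0.24 with 1 library left out and was -0.37 with TMM scaling. Gene bodies with 2 kb added, and peak midpoints, gave the same 7 peaks. At the 5hmC depth, a count of 0 allows up to 7.06 per 100000.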

Other observations

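Genes that use the pathway's isoprenoids for other products were balanced. Of 11 genes for dolichol, ubiquinone and protein prenylation, 7 were higher in knockout and 4 lower (median log2 fold change 0.01, also without wild-type replicate 3), and edgeR and DESeq2 each called 0. Of all genes, 51.6% had a lower fitted level and DESeq2 called 8.22%. At an edgeR unadjusted p under 0.05 there was 1 higher and 0 lower, where 883 of 14851 genes were higher and 1167 lower. The 1 was Pdss1, which builds the ubiquinone side chain, at 24.4 and 19.2 normalised CPM in the knockout libraries and at 2.60, 10.2 and 9.70 in wild type. The groups did not overlap (log2 fold change 1.53 ± 0.60, edgeR adjusted p = 0.350, and 1.75 without wild-type replicate 3). Summed over the list, every library lay between 401 and 459 normalised CPM.

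Genes of the LXR response and of sterol efflux, which answer high sterol, were mostly lower in fitted level in knockout. Of 9 genes, 8 were lower (51.6% of all genes) and 1 higher (median log2 fold change -0.84, and -0.71 over the 8 tested without wild-type replicate 3), with 0 called by edgeR and 1 by DESeq2 (8.22% of all genes). At an unadjusted p under 0.05, 2 were lower (7.86% of all genes) and 0 higher. Cyp27a1, a mitochondrial sterol hydroxylase, was at 2.87 and 6.81 normalised CPM in the knockout libraries and at 81.6, 30.2 and 9.48 in wild type (log2 fold change -3.05 ± 1.02, edgeR adjusted p = 0.299, and -3.52 without wild-type replicate 3). Mylip, an LXR target that promotes lipoprotein receptor degradation, was at 24.9 and 18.4 in knockout and at 125, 31.8 and 47.4 in wild type (log2 fold change -1.65 ± 0.64, edgeR adjusted p = 0.350, and -1.85 without that library). Both were highest in wild-type replicate 1, as Soat1 was, and the list summed to 2016 normalised CPM there against 543 to 911 elsewhere.

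Summed markers of other cells, in knockout replicates 1 and 2 and wild-type replicates 1, 2 and 3, differed between libraries of 1 genotype. B cell markers summed to 24.2, 11.5, 1.03, 2.72 and 0.351 normalised CPM, so they also separated by genotype. Of the 4 tested, 4 had a higher fitted level in knockout and 0 a lower one, where 51.6% of all genes were lower. EdgeR called 0 of them and DESeq2 4, where DESeq2 called 8.22% of all genes. Granulocyte markers summed to 1.53, 133, 133, 8.58 and 1.74. Dendritic cell markers summed to 22.3, 11.9, 276, 167 and 68.5, but in wild type nearly all of this was Itgax, and 5 of 6 markers had a higher fitted level in knockout. Megakaryocyte and erythroid markers summed to 45.9, 37.6, 245, 80.9 and 195. T cell and NK markers summed to 1.16, 4.34, 37.4, 5.27 and 6.49, nearly all of it Cd4, with Cd3e and Cd8a at 0 in all 5 libraries. Cell cycle genes summed to 1257, 2623, 415, 3128 and 2200.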
